A study of Mus musculus with 5 samples.

Results

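Peaks that were listed by 2 or more genes are described here for the transcription factors SOX7, FLI1 and ERG. In each deposited table a gene's row lists its peaks by position, and a peak was taken as a multi-gene peak when at least 2 distinct Ensembl identifiers of that table listed exactly the same chromosome, start and end. The rule found 491 of 10029 SOX7 peaks, 1058 of 16834 FLI1 peaks and 129 of 1588 ERG peaks, which makes 1678 of 28451 peaks in all. The peaks come from DamID, in which a factor fused to the bacterial methylase Dam marks adenines of GATC sites near the places it visits. The cells were endothelial precursors grown from mouse embryonic stem cells and sorted as cKIT+ TIE2+, after isolation of FLK1+ cells at day 3 and 1 day of blast culture. The groups were the lines iSox7::Dam, IFli1::Dam and iErg::Dam, each set against iDam cells that carry Dam with no factor, and all lines derive from Ainv18. There were 5 libraries, 1 for each factor, 1 Dam-only library for SOX7 and 1 Dam-only library for both FLI1 and ERG. With 1 library per group no difference has a replicate check, no test over samples was possible, and factor and line cannot be told apart. The Dam-only libraries have no table of their own here, and peak lists hold no expression values with which the sorted cell type could be checked against its markers.

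A peak can be listed by several genes because genes lie close to each other. Divergent genes start back to back and can share 1 bidirectional promoter, small nucleolar RNAs and many miRNAs lie inside introns of host genes, and antisense and long intergenic non-coding RNAs often start beside a protein-coding gene. A rule that assigns a peak to every gene within reach then lists the peak under each of them, and the position alone does not say which gene, if any, is regulated. SOX factors bind a short AT-rich core, and ETS factors such as FLI1 and ERG bind a GGAA core that is frequent in promoters.

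The DNA at the starts of back-to-back genes is shown here because both genes of each pair list the same peak, whose distance to either start was not computed. Of the divergent protein-coding pairs named in the results, 4 had RefSeq promoter windows (250 bases before to 50 after the start) that share a stretch of at least 30 bases on opposite strands. The sequences are from RefSeq on GRCm38.p6 and give the minus strand, on which the first gene is read. GRCm38.p6 is another build than the mm9 of the peaks, so these coordinates cannot be set against peak positions. Capitals mark GGAA and its reverse complement TTCC.
Nmnat1 and Lzic, chr4:149485123-149485315, starts 94 bases apart: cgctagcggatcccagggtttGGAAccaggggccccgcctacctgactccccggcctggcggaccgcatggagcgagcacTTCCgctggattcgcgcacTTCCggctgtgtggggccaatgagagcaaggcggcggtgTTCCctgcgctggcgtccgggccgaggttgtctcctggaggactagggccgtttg
Nsa2 and Gfm2, chr13:97137877-97137986, starts 11 bases apart: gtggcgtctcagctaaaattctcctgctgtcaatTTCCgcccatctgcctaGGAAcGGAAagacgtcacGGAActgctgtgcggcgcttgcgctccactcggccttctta
Atm and Npat, chr9:53536797-53536921, starts 376 bases apart: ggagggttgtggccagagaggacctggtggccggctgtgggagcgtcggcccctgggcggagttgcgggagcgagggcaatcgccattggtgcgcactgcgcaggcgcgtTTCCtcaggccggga
Hspd1 and Hspe1, chr1:55087898-55088182, starts 216 bases apart: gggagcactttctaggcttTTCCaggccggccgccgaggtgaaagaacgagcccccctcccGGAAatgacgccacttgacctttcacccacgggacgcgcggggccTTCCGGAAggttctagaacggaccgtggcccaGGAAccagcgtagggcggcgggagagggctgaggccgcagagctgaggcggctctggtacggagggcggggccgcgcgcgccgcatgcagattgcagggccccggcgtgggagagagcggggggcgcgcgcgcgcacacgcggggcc
The 4 stretches hold 4, 4, 1 and 5 matches in the order shown. A match is a letter match and was not tested for binding.

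Mature miRNAs are shown for miRNA genes found by name in RefSeq that shared a peak with another gene in all 3 tables. Sequences are as RefSeq gives them, with the seed (bases 2 to 8) in capitals. Both genes shown lie at a protein-coding partner, Mir1894 at Ppp1r10, which encodes a nuclear regulator of protein phosphatase 1, and Mir3103 at BC017158. The miRNA gene AL591146.1, at Zfp207, also shared a peak in all 3 tables but was not found in RefSeq by name.
mmu-miR-1894-5p: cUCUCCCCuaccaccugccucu
mmu-miR-1894-3p: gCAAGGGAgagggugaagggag
mmu-miR-3103-5p: gGAGGGAGgaucugcuguuag
mmu-miR-3103-3p: uAACCUCUgauccuucccacag
Mir449c, which lies with Cdc20b, shared a peak in the SOX7 and ERG tables.
mmu-miR-449c-5p: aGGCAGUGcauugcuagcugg
The 5 seeds are all different. Of the 40 miRNA genes that shared a peak in any table, 21 were found in the RefSeq table by name.

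Multi-gene peaks made up 4.90% of SOX7 peaks (95% exact binomial interval 4.48 to 5.34%), 6.28% of FLI1 peaks (5.92 to 6.66%) and 8.12% of ERG peaks (6.83 to 9.58%). These intervals, and all others here, cover counting error only. Most were listed by exactly 2 genes, namely 457 of the SOX7, 968 of the FLI1 and 112 of the ERG peaks. Another 25 SOX7, 80 FLI1 and 17 ERG peaks were listed by 3 genes, and 9 SOX7 and 10 FLI1 peaks by 4 or more, up to 8 genes in each of these tables. The small number of peaks reached a larger part of the gene lists. Of the 6530 SOX7-listed genes 871 (13.3%) listed a shared peak, and 669 (10.2%) were listed through shared peaks alone. These counts were 1876 (18.3%) and 1403 (13.7%) of 10246 FLI1-listed genes, and 264 (16.7%) and 247 (15.6%) of 1579 ERG-listed genes. Exactly the same peaks as another gene were listed by 457 SOX7, 896 FLI1 and 224 ERG genes, which therefore have identical read counts in the table.

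By biotype the multi-gene peaks were of 2 main kinds. Peaks listed by 2 or more protein-coding genes were 221 for SOX7 (45.0%), 504 for FLI1 (47.6%) and 62 for ERG (48.1%). Peaks listed by 1 protein-coding gene and a long non-coding gene were 181 for SOX7 (36.9%), 384 for FLI1 (36.3%) and 46 for ERG (35.7%). A protein-coding gene with a small RNA gene accounted for 36 SOX7, 62 FLI1 and 9 ERG peaks. Peaks with no protein-coding gene numbered 18, 49 and 6, and 19, 38 and 2 peaks were listed by several identifiers that carry a single symbol. The counting intervals of the 3 tables overlapped for both of the largest classes.

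**Figure D1:**
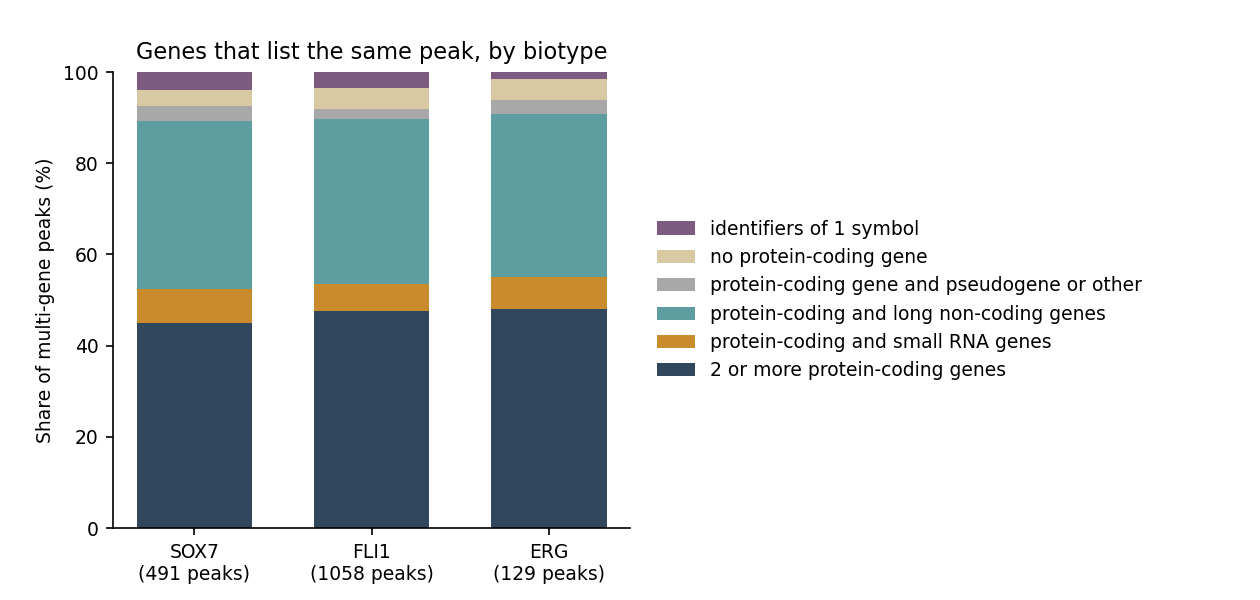
Share of multi-gene peaks (vertical axis, percent) in each biotype class, with 1 bar for each factor (491 SOX7, 1058 FLI1 and 129 ERG peaks). Peaks with 2 or more protein-coding genes take 45.0%, 47.6% and 48.1% of the bars, and protein-coding genes with long non-coding genes take 36.9%, 36.3% and 35.7%.

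Seen from the genes, long non-coding genes were the class that most often listed a shared peak. Among listed long non-coding genes, 199 of 616 did so in the SOX7 table (32.3%, 28.6 to 36.2%), 431 of 1062 in the FLI1 table (40.6%, 37.6 to 43.6%) and 59 of 158 in the ERG table (37.3%, 29.8 to 45.4%). Among protein-coding genes the shares were 11.2%, 16.1% and 13.8%, and among small RNA genes 16.6%, 15.8% and 19.6%. Genes of the deposited biotype antisense, a class absent from the SOX7 table, shared a peak in 161 of 296 cases for FLI1 (54.4%) and in 19 of 44 cases for ERG (43.2%). Genes called sense_intronic, which lie inside an intron of another gene, shared a peak in 10 of 10 cases for FLI1 and 3 of 3 for ERG. Among snoRNA genes 35 of 107 did so for SOX7 (32.7%) and 34 of 161 for FLI1 (21.1%).

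Multi-gene peaks had higher median read densities and widths than peaks of 1 gene in each table. The interval of the density difference excluded 0 in the FLI1 and ERG tables. That interval takes the single-gene median as fixed and counts peaks that carry 1 mean value of a gene as separate. Ranked by the gene's read count in place of density, the difference in median percentile turned to −17.5 in the SOX7 and −17.4 in the FLI1 table. That count is a sum over all peaks of the gene. Over peaks with a value of their own, chosen after seeing the data, the read count gave differences of 9.53 and 19.2. Density is the deposited reads per kb, taken from the gene of the peak with the fewest peaks, and it was ranked as a percentile within each table because the values are not scaled to library size. The median was 52.9 reads per kb for SOX7 peaks of 2 or more genes and 49.6 for peaks of 1 gene, at percentiles 55.7 and 49.8. The FLI1 medians were 74.8 reads per kb for multi-gene peaks and 69.6 for single-gene peaks, at percentiles 56.9 and 49.7, and the ERG medians were 38.5 and 31.1, at percentiles 59.5 and 49.2. The median percentile of SOX7 multi-gene peaks was 5.93 higher (order-statistic interval of the multi-gene median less the single-gene median, −0.45 to 10.5), an interval that includes 0. That of FLI1 was 7.20 higher (2.59 to 10.8), and the ERG difference was 10.3 (0.41 to 19.1). The 34 SOX7 peaks of 3 or more genes had a median percentile of 74.3, the 90 FLI1 peaks one of 61.6 and the 17 ERG peaks one of 69.6. The median width was 1600 bp for SOX7 multi-gene peaks against 1450 bp for single-gene peaks. It was 1850 against 1650 bp for FLI1 and 1100 against 950 bp for ERG, in the same order. Width thus moved with the number of genes, and its part in that number was not tested.

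The density is the peak's own value only where some gene lists that peak and no other. This held for 76.6% of multi-gene peaks in the SOX7, 76.8% in the FLI1 and 97.7% in the ERG table, against 40.8%, 33.5% and 82.9% of single-gene peaks. For the rest it is a mean over several peaks of a gene.

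**Figure D2:**
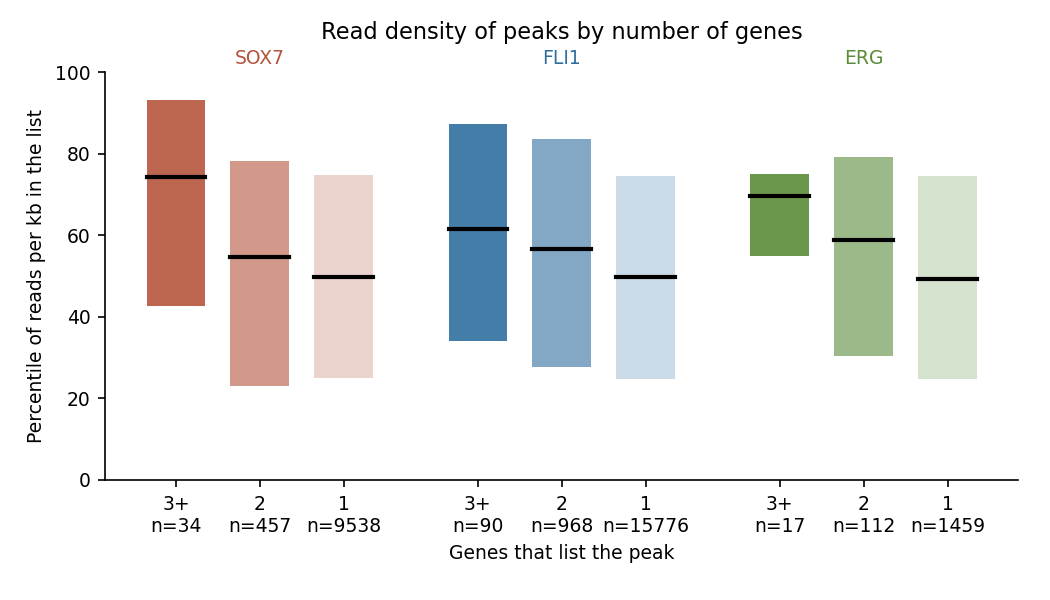
Percentile of reads per kb among all peaks of the same table (vertical axis), for peaks listed by 3 or more, 2 and 1 genes in each table. Bars span the quartiles, black lines are medians and n is the number of peaks. The SOX7 medians are 74.3, 54.7 and 49.8, the FLI1 medians 61.6, 56.6 and 49.7 and the ERG medians 69.6, 58.9 and 49.2.

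The multi-gene SOX7 peak of highest density was listed by Refbp2, U5 and B930036N10Rik on chromosome 1 from 173433158 to 173435958 (mm9), with 819 reads and 292 reads per kb (Poisson interval 273 to 313). Refbp2, named Alyref2 in the FLI1 and ERG tables, belongs to the family of mRNA export adaptors, and U5 is a small nuclear RNA of the spliceosome. The next SOX7 peaks were those of Muc13, a cell-surface mucin, with Gm15657 (377 reads, 279 reads per kb, 252 to 309) and of Lzic with Nmnat1 (204 reads, 215 reads per kb, 186 to 246). Nmnat1 encodes a nuclear enzyme of NAD synthesis, and its sequence shared with Lzic is shown above. Etl4 with Gm13335 had 193 reads per kb and 1810011O10Rik with Gm16625 had 182. No FLI1 or ERG peak overlapped the Lzic and Etl4 peaks.

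The FLI1 table was also led by Alyref2, U5 and B930036N10Rik, with 1670 reads and 556 reads per kb (530 to 584). Mtmr11, Sf3b4 and Gm17690 followed with 580 reads and 374 reads per kb (344 to 406). Sf3b4 encodes a subunit of the SF3b splicing factor. The SOX7 table lists the same 3 genes for an overlapping peak with 159 reads per kb (percentile 98.8). Ccdc148 with Gm11099 had 364 reads per kb and Zfp207, a zinc finger protein of spindle assembly, with the miRNA AL591146.1 had 363. Tmem181b-ps, Gm2792 and Gm17692 had 360. In the ERG table Myo3a with the pseudogenes Gm13340 and Gm13341 stood first with 520 reads per kb (percentile 99.8), and no SOX7 or FLI1 peak overlapped it. Cbx5 and Hnrnpa1 followed with 392 reads and 412 reads per kb (372 to 455). Ankrd11, a chromatin regulator with ankyrin repeats, with Gm20388 had 278, the pseudogenes Gm11407, Gm11408 and Gm11410 had 241, and Wbp11 with BC049715 had 162. Wbp11 and BC049715 also shared an overlapping SOX7 peak, with 98.7 reads per kb.

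The peaks listed by the most genes lay in gene clusters. The SOX7 peak of the Ugt1a cluster, whose genes are alternative first exons joined to common exons and encode glucuronosyltransferases, was listed by 8 identifiers on chromosome 1 from 90023658 to 90024908. It held 84 reads at 67.2 reads per kb (percentile 75.3), and no FLI1 or ERG peak overlapped it. Snhg12, a host gene of small nucleolar RNAs, shared a SOX7 peak with Snora44, Snora61, Snora16a, Snord99 and the neighbouring Trnau1ap, with 356 reads over 5600 bp. The FLI1 peak there listed Trnau1ap, Snord99 and Snhg12 at 173 reads per kb (percentile 97.2). The ribosomal protein gene Rpl23a with Snord42a, Snord4a, Nek8 and Tlcd1 shared a SOX7 peak of 344 reads. Among FLI1 peaks, 8 predicted genes, among them Gm10106 and Gm10717, listed a single peak of 17500 bp with 2476 reads, the widest multi-gene peak of all. No SOX7 or ERG peak overlapped it, and the repeat content of peaks was not examined. The FLI1 peak of Bola1, Hist2h2ab, Hist2h2be, Hist2h2ac and Gm15444 holds 3 histone genes at 67.5 reads per kb (percentile 46.2). H2-T24, of the major histocompatibility complex, shared with Gm17579 and 2 identifiers of A930015D03Rik a FLI1 peak of 202 reads per kb.

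Some families were examined after their values were seen. Gnb2l1, which encodes the ribosomal scaffold protein RACK1, shared a FLI1 peak with SNORD95, Snord96a and Snord95 at 119 reads per kb. Of the histone genes 6 of 20 in the SOX7 table (30%), 15 of 23 in the FLI1 table (65.2%) and 3 of 7 in the ERG table (42.9%) shared a peak, beside 13.3%, 18.3% and 16.7% of all listed genes. Hist1h3d and Hist1h2ad did so in both, with 57.8 reads per kb for SOX7 and 112 for FLI1. The miRNA genes Mir290, Mir291a and Mir292 of a cluster known from embryonic stem cells shared a FLI1 peak of 37 reads and 30.8 reads per kb (21.7 to 42.5), at percentile 2.2.

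The miRNA genes printed above shared peaks of high and low rank within their tables. The peak of Ppp1r10 and Mir1894 had 67.7 reads per kb for SOX7 (percentile 75.8) and 17.0 for ERG (percentile 12.7). In the FLI1 table Mrps18b joined them, with 102 reads per kb (percentile 82.3). BC017158 and Mir3103, which is named AC124566.1 in the SOX7 table, had 78.8 reads per kb for SOX7, 155 for FLI1 and 29.97 for ERG, at percentiles 84.3, 95.9 and 47.1. Mir449c and Cdc20b had 44.2 reads per kb for SOX7 (percentile 39.1) and 137 for ERG (percentile 96.3), with no overlapping FLI1 peak. Ranks are comparable only within a table.

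Protein-coding genes that shared a peak were mostly direct neighbours. The order and strands of genes were read from a RefSeq table of GRCm38.p6, which held both genes for 86.1% of the protein-coding pairs of SOX7, against 75.1% in the FLI1 and 71.8% in the ERG table. No other protein-coding gene lay between the partners in 130 of 177 matched SOX7 pairs (73.4%), 315 of 381 FLI1 pairs (82.7%) and 43 of 50 ERG pairs (86.0%). Exactly 1 gene lay between them in 26, 36 and 5 pairs. Strands were known for both genes in 124 SOX7, 274 FLI1 and 34 ERG pairs. These are fewer than 80% of the pairs in each table, so the check of arrangement is void for the full set of pairs, and the shares below describe the pairs with known strands.

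Among those pairs, back-to-back genes made up 36 of 124 for SOX7 (29.0%, 21.2 to 37.9%), 126 of 274 for FLI1 (46.0%, 40.0 to 52.1%) and 19 of 34 for ERG (55.9%, 37.9 to 72.8%). Of 15013 pairs of adjacent protein-coding genes in the RefSeq table, 3535 (23.5%) were divergent, a share that lies within the SOX7 interval. Among the adjacent pairs that share a peak the divergent share was 32.2% in the SOX7 table (22.6 to 43.1%), 48.7% in the FLI1 table (42.0 to 55.4%) and 55.2% in the ERG table (35.7 to 73.6%), and the same-strand share was 33.3%, 22.6% and 20.7%. Those reference pairs are not matched on distance, and genes that share a peak lie close to each other. Pairs on the same strand made up 41.9% for SOX7, 27.0% for FLI1 and 23.5% for ERG, against 52.3% of adjacent reference pairs. Convergent pairs made up 19.4%, 17.2% and 11.8%, against 22.9%. In 12 SOX7, 27 FLI1 and 3 ERG pairs 1 gene lay inside the other on the opposite strand (9.68%, 9.85% and 8.82%), against 1.28% of adjacent reference pairs. Nested genes on the same strand are counted as same-strand pairs, here and below.

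**Figure D3:**
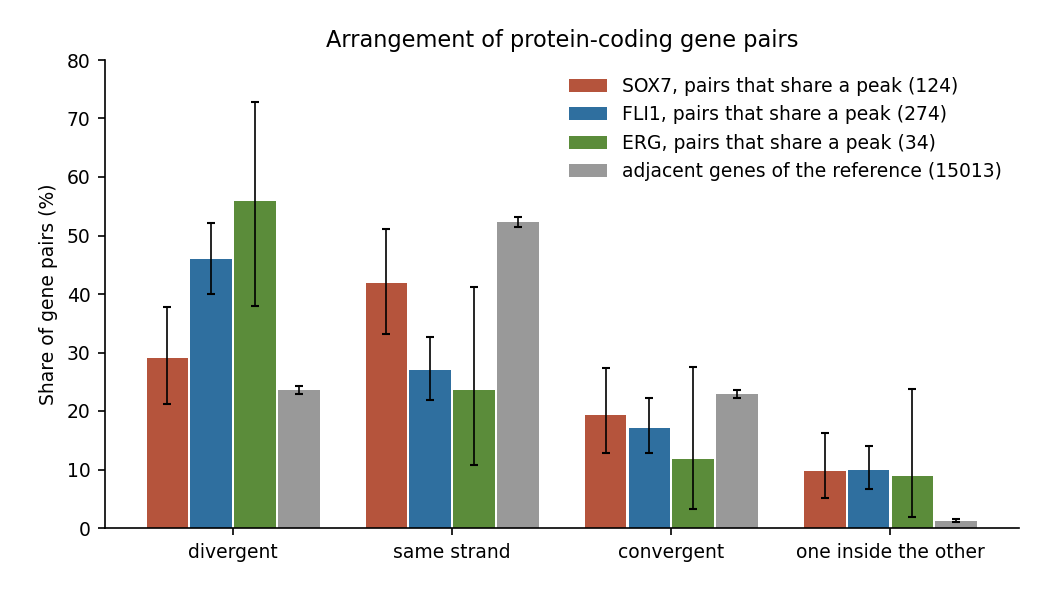
Share of protein-coding gene pairs (vertical axis, percent) in each arrangement, for pairs that share a SOX7, FLI1 or ERG peak (124, 274 and 34 pairs with known strands) and for 15013 adjacent pairs of the RefSeq table. Error bars are exact binomial intervals. The divergent share is 29.0%, 46.0% and 55.9% for the pairs that share a peak and 23.5% for the reference pairs.

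The density of FLI1 peaks varied with the arrangement, in an order that the SOX7 and ERG tables did not show. FLI1 peaks of divergent pairs had a median percentile of 71.9 (131 peaks, quartiles 41.9 and 84.8), those of same-strand pairs 61.4, those of convergent pairs 43.3 and those with a gene inside the other 30.1. Among FLI1 peaks with a value of their own the medians were 70.8, 68.0, 30.6 and 37.2. The SOX7 medians were 51.6, 63.5, 61.8 and 25.5, the last of which is 1 mean value that 8 of the 19 peaks take from Filip1l and 2610528E23Rik. Among SOX7 peaks with a value of their own they were 51.6, 58.7, 42.2 and 68.9. The ERG medians were 55.0 at 19 divergent, 74.6 at 6 same-strand, 70.7 at 4 convergent and 38.8 at 3 enclosed pairs. Of 40 SOX7 peaks at divergent pairs 27 overlapped a FLI1 peak (67.5%, 50.9 to 81.4%), as did 20 of 48 at same-strand pairs (41.7%, 27.6 to 56.8%) and 12 of 30 at convergent pairs (40.0%, 22.7 to 59.4%). The intervals of the first and second shares overlap. ERG peaks overlapped FLI1 peaks at 10 of 19 divergent (52.6%, 28.9 to 75.6%), 5 of 6 same-strand (35.9 to 99.6%) and 3 of 4 convergent pairs (19.4 to 99.4%). These ERG intervals all overlap, so they show no order.

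The promoter windows of divergent partners often share sequence. A common stretch of at least 30 bases was found for 20 of 36 SOX7 pairs (55.6%, 38.1 to 72.1%), 71 of 126 FLI1 pairs (56.3%, 47.2 to 65.2%) and 12 of 19 ERG pairs (63.2%, 38.4 to 83.7%). It was found for 620 of 3535 adjacent divergent pairs of the RefSeq table (17.5%), which are not matched on distance. Only genes with close starts can have such a stretch, and genes that share a peak lie close to each other. The part of distance in these shares was not tested. SOX7 peaks of pairs with such a stretch had a median percentile of 27.2, and those of pairs without it 71.2. The medians were 66.5 and 73.4 for FLI1 and 51.2 and 79.0 for ERG, in the same order.

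Letter motifs were counted on both strands in the 87 different stretches of pairs that share a peak, in the 620 reference stretches and in all 32851 promoter windows of 250 bases before to 50 after a start. The stretches are shorter (medians of 192 and 203 bases), so whole windows have more room for a match. The ETS core GGAA was present in 92.0% of the stretches of pairs that share a peak, 88.4% of reference stretches and 96.0% of all promoters. The longer CCGGAAG, which contains GGAA and was added after seeing the data, was present in 29.9%, 25.5% and 8.86%. The SOX core ACAAT was present in 5.75%, 11.5% and 31.0%. GATC, the only sequence that Dam can mark, was present in 36.8%, 31.6% and 48.0%. None of these matches says where a factor was bound.

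Textbook neighbours that are known to share promoters or lie side by side were looked up by name, and 8 of 27 such pairs shared a peak in at least 1 table. In the RefSeq table, 278 of all 15013 adjacent protein-coding pairs (1.85%) did, and of the divergent ones 126 of 3535 (3.56%), counted over pairs matched by name and strand. The textbook pairs were matched by name alone and were chosen with earlier results of these data known. The reference counts also miss pairs whose names or strands were not found, so these shares are not an even comparison. Cbx5, which encodes the heterochromatin protein HP1 alpha, and Hnrnpa1, which encodes a splicing regulator, shared a FLI1 peak of 205 reads per kb (percentile 98.5) and the ERG peak of 412 reads per kb (percentile 99.7). The overlapping SOX7 peak, at 154 reads per kb and percentile 98.6, listed Hnrnpa1 alone. Tbp, which encodes the TATA-binding protein, and Psmb1, a proteasome subunit gene, shared a FLI1 peak of 629 reads and 307 reads per kb (283 to 332). Their ERG peak had 47.3 reads per kb (percentile 69.3), and no SOX7 peak overlapped either. Ppat and Paics, both genes of purine synthesis, shared peaks of 110 reads per kb for FLI1 and 78.0 for ERG, at percentiles 86.2 and 87.8. All 3 pairs were thus listed together for both ETS factors and for SOX7 in none.

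Other textbook pairs had lower or single values. Surf1, a cytochrome oxidase assembly gene, and Surf2 shared a FLI1 peak of 127 reads per kb (percentile 91.4). Atm, which encodes the DNA damage kinase, and Npat, which encodes a co-activator of histone genes, shared a FLI1 peak of 62.4 reads per kb (percentile 37.9). The overlapping SOX7 peak listed Atm alone, with 74.6 reads per kb. The chaperonin genes Hspd1 and Hspe1 shared a FLI1 peak of 3700 bp with 39.2 reads per kb (percentile 7.28), and the overlapping SOX7 peak listed Hspd1 alone, with 81.9 reads per kb (percentile 86.3). Their printed stretch has the most GGAA matches of those shown and is also the longest, at 285 bases. A relation of matches to FLI1 rank was not tested. Hist1h2bc and Hist1h2ac shared a SOX7 peak of 44.1 reads per kb (percentile 39.0).

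A larger share of multi-gene peaks than of single-gene peaks overlapped a peak of another factor by at least 1 bp when all identifiers were counted. With protein-coding identifiers alone the ERG overlap with SOX7 turned, at 29.7% of multi-gene against 32.2% of single-gene peaks, and the intervals of the SOX7 overlap with ERG came to overlap (7.56% against 5.09%). Of the SOX7 multi-gene peaks 229 of 491 overlapped a FLI1 peak (46.6%, 42.2 to 51.2%), against 34.6% of SOX7 single-gene peaks (33.6 to 35.6%) and 35.2% of all SOX7 peaks. With ERG the shares were 49 of 491 (9.98%, 7.47 to 13.0%) against 4.88% of single-gene peaks, and 5.13% of all. Of the FLI1 multi-gene peaks 273 of 1058 overlapped a SOX7 peak (25.8%, 23.2 to 28.6%) against 20.6% of single-gene peaks, and 20.9% of all. With ERG the shares were 95 of 1058 (8.98%, 7.33 to 10.9%) against 4.34%, and 4.63% of all. Of the ERG multi-gene peaks 78 of 129 overlapped a FLI1 peak (60.5%, 51.5 to 69.0%) against 48.3% of single-gene peaks (45.7 to 50.9%), and 49.3% of all. These intervals overlapped under 4 of 5 alternatives, for example at 59.5% (50.2 to 68.3%) against 48.4% (45.8 to 51.02%) without the identifiers of Fgfr2, Gm20388 and Arfip1. For ERG with SOX7 the shares were 46 of 129 (35.7%, 27.4 to 44.6%) against 32.1% (29.8 to 34.6%), and 32.4% of all, and their intervals overlap. Width moved with these shares: among FLI1 peaks with widths between the quartiles, the overlap with SOX7 was 20.5% of multi-gene peaks (17.1 to 24.2%) against 18.1% of single-gene peaks (17.3 to 18.9%), and these intervals overlap.

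**Figure D4:**
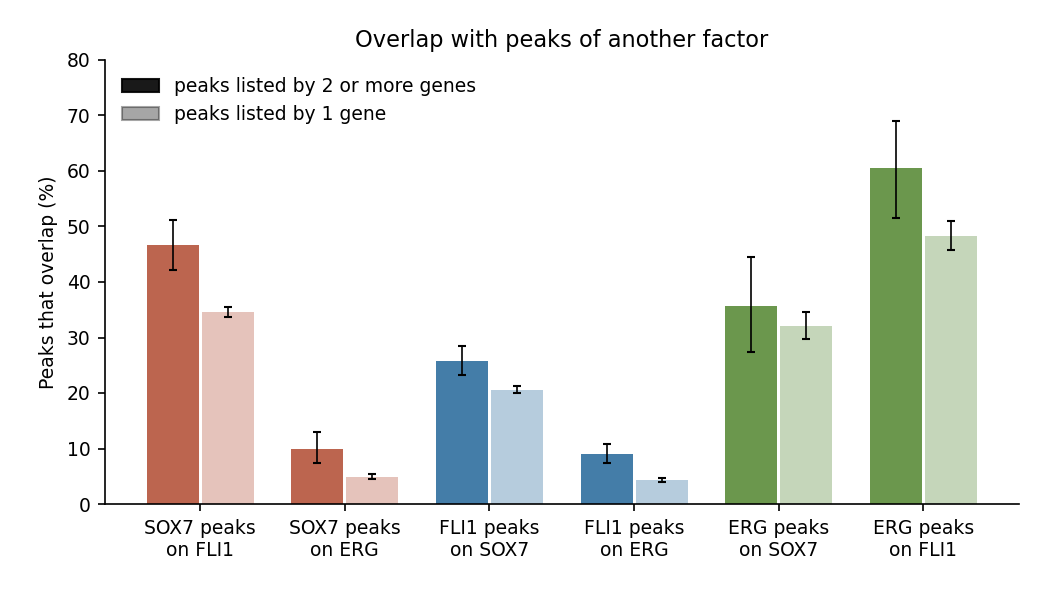
Share of peaks that overlap a peak of another factor by at least 1 bp (vertical axis, percent), for peaks listed by 2 or more genes (dark) and by 1 gene (light). Error bars are exact binomial intervals. The intervals overlap for ERG peaks on SOX7 (35.7% and 32.1%), and those for ERG peaks on FLI1 (60.5% and 48.3%) are only just apart.

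Where multi-gene peaks of different factors met, they were usually listed by the same genes. Of the 229 SOX7 multi-gene peaks on a FLI1 peak, 210 met a multi-gene FLI1 peak, and 208 of them a peak with at least 1 identical gene pair. The other 19 met FLI1 peaks of 1 gene. Single-gene peaks met peaks of the same gene about as often. At least 1 gene was common to both peaks for all 229 multi-gene SOX7 peaks and for 3267 of 3300 single-gene ones on a FLI1 peak. Of the 273 FLI1 multi-gene peaks on a SOX7 peak 207 met an identical pair, and 64 met SOX7 peaks of 1 gene. Of the 78 ERG multi-gene peaks on a FLI1 peak 75 met an identical pair. Symbols and biotypes of 1 identifier can differ between tables, and the part of annotation in these differences was not tested.

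Counted as gene pairs, 559 pairs shared a SOX7 peak, 1166 a FLI1 peak and 160 an ERG peak, 1489 pairs in all. SOX7 and FLI1 had 281 pairs in common, which is 50.3% of the SOX7 pairs and 24.1% of the FLI1 pairs. FLI1 and ERG had 106 in common (9.09% of the FLI1 and 66.3% of the ERG pairs), and SOX7 and ERG had 57 (10.2% of the SOX7 and 35.6% of the ERG pairs). Among all peaks, 35.2% of SOX7 peaks overlapped a FLI1 peak and 20.9% of FLI1 peaks a SOX7 peak. Of all ERG peaks, 49.3% overlapped a FLI1 peak and 32.4% a SOX7 peak. With ERG the shares were 4.63% of all FLI1 and 5.13% of all SOX7 peaks. Pairs are compared by gene and peaks by position, and a difference between these shares was not tested. A set of 48 pairs was listed together in all 3 tables, and for 40 of them the peaks of the factors met. Of the 48 pairs 19 were of protein-coding genes, 21 of a protein-coding and a long non-coding gene, and 6 of a protein-coding and a small RNA gene. The 48 pairs come from 42 different SOX7 peaks, so that some loci count more than once. Above percentile 90 were 13 of the 48 pairs for SOX7, 25 for FLI1 and 9 for ERG, each pair taken at the densest peak it shares. Of all multi-gene peaks, 13.2%, 17.6% and 12.4% stood at percentile 90 or above in the SOX7, FLI1 and ERG tables.

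The 10 pairs with the best mean percentile came from 8 loci. The locus of Alyref2, U5 and B930036N10Rik gave 3 pairs and stood at percentiles 99.9, 99.9 and 97.1 for SOX7, FLI1 and ERG, with 292, 556 and 147 reads per kb. Zfp608, a zinc finger gene, and the long intergenic Gm17270 had 152 reads per kb for SOX7, 183 for FLI1 and 126 for ERG, at percentiles 98.5, 97.8 and 95.9. The SOX7 value there is a mean over several peaks, and the densest SOX7 peak of the pair overlapped the FLI1 peak and no ERG peak. Ankrd11 and Gm20388, named AC114005.5 in the SOX7 table, had 101, 142 and 278 reads per kb (percentiles 93.6, 94.3 and 99.3), of which the first and second are means over several peaks. Tcte2 and Gm16046 had 113, 177 and 106 reads per kb (percentiles 95.6, 97.4 and 92.9). All 4 loci thus stood in the top 10% of each table.

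The remaining best-ranked pairs lay at other loci. Zfp207 and AL591146.1 had 119, 363 and 84.5 reads per kb (percentiles 96.1, 99.8 and 89.7). Nsa2, a ribosome biogenesis gene, and Gfm2, which encodes a mitochondrial elongation factor, are the pair with starts 11 bases apart shown above. Their SOX7 peak had 72.4 reads per kb (58.0 to 89.4, percentile 80.2), their FLI1 peak 352 (316 to 390, percentile 99.8) and their ERG peak 123 (102 to 146, percentile 95.6). The pair of 0610011F06Rik and Gm17480 had 94.5, 199 and 67.7 reads per kb, of which the second is a mean over several peaks. Its peak listed Wfikkn1 as well for SOX7 and Rab40c as well for FLI1. Qpctl, a glutaminyl cyclase gene, and Snrpd2, which encodes a core protein of spliceosomal particles, had 68.6, 276 and 69.3 reads per kb (percentiles 76.8, 99.4 and 83.6). Nsa2 with Gfm2 and Qpctl with Snrpd2 both stood in the top 1% of the FLI1 table.

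**Figure D5:**
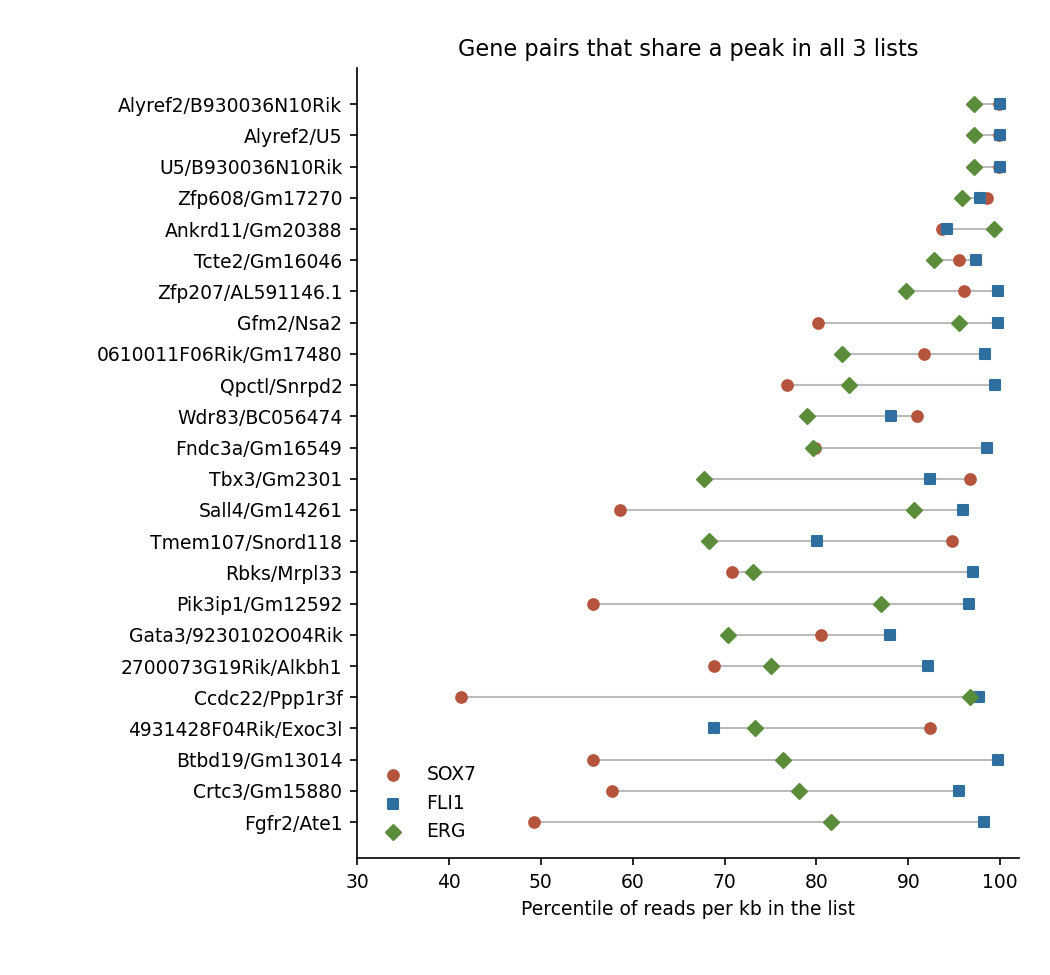
Percentile of reads per kb within each table (horizontal axis) for the 24 pairs with the best mean percentile among the 48 pairs that share a peak in all 3 tables. Circles are SOX7, squares FLI1 and diamonds ERG, and the grey line joins the lowest and highest value of a pair. Pairs at the top lie close to 100 in all tables, and Ccdc22/Ppp1r3f lies at 41.3 in the SOX7 and 97.7 in the FLI1 table.

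Developmental regulators among the 48 pairs were chosen after their values were seen. Tbx3, a T-box factor gene, shared a peak with Gm2301 with a SOX7 value of 123 reads per kb (percentile 96.7), a FLI1 value of 131 (percentile 92.3) and an ERG value of 45.3 (percentile 67.8). Sall4, a zinc finger gene of pluripotent cells, shared one with Gm14261 with a SOX7 value of 54.7 reads per kb (percentile 58.6), a FLI1 value of 156 (percentile 96.0) and an ERG value of 88.5 (percentile 90.7). Gata3, with 9230102O04Rik and 4930412O13Rik, had 72.9, 80.7 and 49.2 reads per kb at the peak that all 3 tables list, and a second peak with 9230102O04Rik alone for FLI1 and ERG. Hoxa3 shared a peak with 2700086A05Rik in all 3 tables, at 103, 54.6 and 47.4 reads per kb for SOX7, FLI1 and ERG. The SOX7 peak, which Hoxa5 also lists, did not overlap the FLI1 and ERG peaks. Tmem107, a ciliary gene, and Snord118, which encodes the U8 small nucleolar RNA, had 107, 98.2 and 46.0 reads per kb. Rb1, the retinoblastoma gene, and Lpar6, a lysophosphatidic acid receptor gene inside it, had 76.6, 177 and 24.5 reads per kb.

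Among genes of the endothelial list, 3 of 18 listed genes shared a SOX7 peak, 3 of 23 a FLI1 peak and 1 of 5 an ERG peak, beside 13.3%, 18.3% and 16.7% of all listed genes. Tie1, a receptor tyrosine kinase of vessels, shared a SOX7 peak with the pseudogene Gm12859 at 77.8 reads per kb (65.6 to 91.6, percentile 83.4). Esam, an endothelial adhesion molecule gene, shared a SOX7 peak with Vsig2 at 33.9 reads per kb (percentile 19.4). Ptprb, which encodes the vascular phosphatase VE-PTP, shared one with Ptprr at percentile 90.3, from a mean over several peaks. The overlapping FLI1 peak listed Ptprr alone. Nos3, the endothelial nitric oxide synthase gene, shared a FLI1 peak with the antisense Gm15587 at 74.6 reads per kb (percentile 56.5). Plvap, which forms the diaphragms of fenestrae, shared one with Gtpbp3 at 70.8 reads per kb, and the overlapping SOX7 peak listed Gtpbp3 alone.

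Egfl7, whose product is secreted by endothelial cells, shared peaks with Agpat2, a lipid acyltransferase gene, and Gm20532. The FLI1 peak had 510 reads and 138 reads per kb (percentile 93.6), and the overlapping ERG peak 104 reads and 41.6 reads per kb (percentile 63.4). A second ERG peak was listed by Egfl7 and Gm20532. No SOX7 peak overlapped these shared peaks.

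Of the SOX and ETS factor genes, Sox4 and Gm17419 shared a peak of 72.0 reads per kb for SOX7 (percentile 79.8) and an overlapping one of 67.5 for FLI1 (percentile 46.2). Elk3, an ETS gene, and Cdk17 shared a SOX7 peak and a FLI1 peak that did not overlap, at percentiles 51.2 and 49.4, both from means over several peaks. Etv2, an ETS gene required for blood and vessel formation, shared an ERG peak of 5300 bp with Rbm42 and Haus5, with 587 reads and 111 reads per kb (percentile 93.8). The SOX7 peak there listed Etv2 alone (45.7 reads per kb, percentile 42.0), and the FLI1 peak listed Rbm42 alone (82.2 reads per kb, percentile 65.9). The same place was thus given to different genes in each table. In the Notch list 0 of 10 SOX7, 1 of 12 FLI1 and 0 of 3 ERG genes shared a peak, the FLI1 case being the receptor gene Notch3 with Gm17276 (71.8 reads per kb, percentile 52.6). In the BMP and TGF-beta list 1 of 13 SOX7, 0 of 13 FLI1 and 0 of 7 ERG genes did, the SOX7 case being the receptor gene Bmpr1a with Gm17110 (33.7 reads per kb, percentile 18.95).

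The other lists had at most 3 genes with a shared peak in a table, beside the 13.3%, 18.3% and 16.7% of all listed genes given above. In the list of haemogenic and blood genes these were 2 of 8 for SOX7 (Myb and Lmo2), 2 of 12 for FLI1 (Lmo2 and Zfpm1) and 1 of 5 for ERG (Zfpm1). Housekeeping genes shared a peak in 3 of 9, 2 of 7 and 1 of 3 cases. Basement membrane genes did so in 0 of 10, 0 of 12 and 0 of 4 cases. Of the neural genes 0 of 4, 2 of 5 and 0 of 2 did, and of the endoderm and liver genes 0 of 4 for SOX7 and 1 of 3 for FLI1, with no gene of that list in the ERG table.

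A few identifiers accounted for many pairs. Fgfr2, which encodes a fibroblast growth factor receptor, shared 26 of its 40 FLI1 peaks with 17 other genes, among them Ate1, Tacc2, Htra1 and Bub3, and 10 of its 15 SOX7 peaks with 8 genes. Gm20388 shared 24 of 60 FLI1 peaks with 18 genes, among them Zfpm1, Ankrd11 and Acta1, and 5 of 13 ERG peaks. Arfip1 shared 12 of 19 SOX7 peaks with 6 genes and 10 of 21 FLI1 peaks with 7 genes. Filip1l and 2610528E23Rik listed the same 8 peaks for SOX7, all shared. By contrast 768 of the 871 SOX7 genes, 1664 of the 1876 FLI1 genes and 256 of the 264 ERG genes with a shared peak had exactly 1. Without the identifiers of Fgfr2, Gm20388 and Arfip1, multi-gene peaks were 4.66%, 5.97% and 7.66% of the SOX7, FLI1 and ERG peaks.

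The share of multi-gene peaks varied between chromosomes. For FLI1 it was 9.65% on chromosome 11 (99 of 1026 peaks, 7.91 to 11.6%), 8.93% on chromosome 17, 8.77% on chromosome 7 and 8.73% on chromosome 2, and 3.88% on chromosome 14 (31 of 799, 2.65 to 5.46%). For SOX7 it was 8.10% on chromosome 17 (29 of 358, 5.49 to 11.4%) and 1.54% on chromosome 19 (4 of 260, 0.42 to 3.89%). ERG had the highest share on chromosome 3 (14 of 82, 17.1%, 9.66 to 27.0%) and none on chromosome 16 (0 of 48, up to 7.40%). Of the 90 FLI1 multi-gene peaks on chromosome 7, 26 are those of Fgfr2, which lies there. Shares by chromosome were not computed without Fgfr2.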

How the data were processed

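The authors deposited 1 gene table for each factor library, and the Dam-only libraries had no table here. Per the file headers the columns are a read count and reads per kb, which is a coverage signal. The deposited signal equals count times 1000 over the summed inclusive peak length in all 6530 SOX7, 10246 FLI1 and 1579 ERG genes, so the values are scaled neither to library size nor to the control. Per the labels' descriptions, peaks were called relative to Dam-only libraries. The build is mm9, per the submitters' processing notes. Not given in the sources used here are the peak caller, threshold, assignment rule, annotation release and library depth, and whether a peak is exonic, intronic or intergenic. Libraries came from 50 ng of DNA with 10 cycles, read as single 60 bp reads, per the labels' protocols. Reads carry no molecular identifiers.

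Peaks were split out of the tables and grouped by position with Python 3.11.15 and pandas 2.3.3. The peak's own reads were known for 379 of 491 SOX7, 829 of 1058 FLI1 and all 129 ERG multi-gene peaks. Where needed they were found by subtracting the other peaks of a gene. They ranged from 14 to 819 for SOX7, 23 to 2476 for FLI1 and 11 to 937 for ERG, with medians of 78, 148 and 49. That count bounds the precision of a density. Exact binomial (Clopper-Pearson), Poisson and order-statistic intervals at 95% were computed with scipy 1.17.1. Order and strand of genes, promoters and miRNAs came from RefSeq tables of GRCm38.p6, used for names, neighbours and sequences only. No fit across genes was possible. Steps were tested on simulated tables. Alternatives changed the counted identifiers, the strength column, the overlap rule and the peak widths used.

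Named are, in each table, the 5 densest multi-gene peaks with a value of their own and the 3 listed by most genes, then the 10 best pairs of all 3 tables, textbook pairs and members of 9 gene lists. Others were chosen after their values were seen. Members and lists were chosen with earlier results of these data known.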

Additional observations from a re-analysis of the deposited data

How the results depend on the processing

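Of 87 alternatives for 21 results, 67 left the value within its counting interval, 17 moved it and 3 turned its direction. The share of multi-gene peaks was 4.90% for SOX7, 6.28% for FLI1 and 8.12% for ERG. It became 2.75%, 3.70% and 4.60% with protein-coding identifiers alone, 2.72%, 2.54% and 5.16% with identifiers of all 3 tables alone, and 0.339%, 0.535% and 1.07% for peaks of 3 or more genes. For FLI1 it became 5.32% with biotypes of all 3 tables alone and 6.88% among the denser 50% of peaks. The multi-gene minus single-gene median percentile was 5.93 for SOX7 and 7.20 for FLI1 by density. It turned to −17.5 and −17.4 by the gene's read count, which is a sum over all peaks of the gene. Over peaks with a value of their own the read count gave 9.53 for SOX7 and 19.2 for FLI1, an alternative chosen after seeing the data. The density difference became 11.3 for FLI1 peaks with a value of their own and 10.9 with reads found by subtraction, also chosen after seeing the data. Among FLI1 peaks of widths between the quartiles, overlap with SOX7 became 20.5% of multi-gene against 18.1% of single-gene peaks, whose intervals (17.1 to 24.2% and 17.3 to 18.9%) overlap, and overlap with ERG became 6.63% against 3.28%. With protein-coding identifiers alone the SOX7 overlap with ERG was 7.56% against 5.09%, with overlapping intervals, and the ERG overlap with SOX7 turned to 29.7% against 32.2%. The intervals of the ERG overlap with FLI1 stayed apart under 1 of 5 alternatives, an overlap of 50% of the shorter peak. Divergent pairs became 52.2% for FLI1 peaks of exactly 2 genes. Leaving out Fgfr2, Arfip1 and Gm20388, also chosen after seeing the data, moved no share, overlap or arrangement of multi-gene peaks beyond its interval, but the ERG overlap with FLI1 then had an interval that overlaps that of single-gene peaks (59.5%, 50.2 to 68.3% against 48.4%, 45.8 to 51.02%). No paired analysis was possible because each group has 1 library, and for the same reason no replicate could be left out. Depth limits single peaks most in the ERG table, where multi-gene peaks had as few as 11 reads.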
